A study of Homo sapiens with 15 samples.

Results

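Intestinal epithelial identity was followed through 10 genes, taken from the deposited table by symbol. They were the brush border protein gene VIL1, the adhesion protein gene EPCAM, the simple keratin genes KRT8, KRT18, KRT19 and KRT20, and the transcription factor genes CDX1, CDX2, HNF4A and KLF5. Each symbol had 1 row among the 57905 genes of the table, and 8 of the 10 passed the filter on low values (at least 0.5 FPKM in at least 3 libraries), as did 17214 genes of the whole table. CDX1 and KRT20 did not pass. FPKM, the unit of every level below, counts sequenced fragments for each kilobase of a transcript and scales them to the mapped total, so levels of different genes are on a per-length scale.

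The cells were SW480, an established human colorectal adenocarcinoma line, grown in medium with serum. The control group was wild-type SW480 given PBS for 4 h, and the LPS group was wild-type SW480 given lipopolysaccharide at 1 µg/ml for 4 h. The PINT shRNA1 group carried a stable lentiviral short hairpin RNA aimed at the long noncoding RNA PINT, with no LPS over the 4 h. The PINT shRNA1+LPS group carried that hairpin and received LPS at 1 µg/ml for 4 h. Each group had 3 libraries, and the labels name 1 cell line, no clones and, among these groups, no non-targeting hairpin. The hairpin, the lentiviral vector and the selection of transduced cells therefore cannot be told apart.

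Simple epithelia such as the gut lining build their cytoplasmic intermediate filaments from heteropolymers of a type II keratin, chiefly keratin 8, with a type I keratin, chiefly keratin 18, 19 or 20. CDX1, CDX2 and HNF4A are transcription factors that maintain intestinal epithelial identity and differentiation, while KLF5 is abundant in dividing crypt cells. Villin, the product of VIL1, bundles actin in microvilli, and EPCAM is a surface adhesion protein of simple epithelia that is widely used as a carcinoma marker.

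As a check of the labels, LINC-PINT, the gene of PINT, had levels of 2.88, 2.56 and 2.51 FPKM in control and of 2.40, 2.82 and 1.91 with LPS. It stood at 4.55, 5.26 and 5.34 in the libraries labelled PINT shRNA1 and at 3.54, 4.00 and 4.08 in those labelled PINT shRNA1+LPS. LINC-PINT was thus higher, not lower, in the libraries labelled with the hairpin (log2 fold change 0.81 ± 0.12 (SE), limma adjusted p = 0.000592 without LPS). Every direction below is one between labelled libraries and is not read as an effect of less PINT. FPKM summed to between 409248 and 421487 in a library, and total read counts are unknown. Depth relative to control replicate 1, estimated as the commonest ratio between low FPKM values, was 1.3 to 1.51 in the PINT shRNA1+LPS libraries and 0.809 to 1.05 in all others, and its part in the results was not tested. Between 30725 and 31961 genes were above 0 in the hairpin-labelled libraries and between 27078 and 28430 in the others, and the part of this in the results below was not tested.

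Of the 10 genes, 8 were above 0 in all 12 libraries. Of all 57905 genes, between 27078 and 31961 were above 0 in a library, so this count does not test the label of the cells. By mean level over the 12 libraries KRT8 held rank 39 of the 57905 genes, KRT18 rank 55, KRT19 rank 142 and EPCAM rank 248. KLF5 followed at rank 1417, CDX2 at 5510, VIL1 at 7601 and HNF4A at 7890. CDX1 was listed at 0 in all 12 libraries. KRT20, a keratin of differentiated surface colonocytes, ranged from 0.0303 to 0.0445 FPKM in control, from 0.0216 to 0.151 with LPS, from 0 to 0.135 with PINT shRNA1 and from 0.0609 to 0.105 with PINT shRNA1+LPS, and no fold was computed for it. In control libraries the levels ran in the order KRT8, KRT18, KRT19, EPCAM, KLF5, VIL1, CDX2, HNF4A, and the ranges of VIL1 and CDX2, and of CDX2 and HNF4A, overlapped. In both hairpin-labelled groups CDX2 stood above HNF4A and VIL1 with no overlap, and the ranges of HNF4A and VIL1 overlapped.

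Of other cell types, 10 leukocyte markers summed to between 1.31 and 2.06 FPKM in the libraries without the hairpin and between 2.64 and 3.11 in those with it. CD68 was the single leukocyte marker at 0.5 FPKM or more in all libraries of each group, PTPRC did not exceed 0.0713 FPKM in any library, and TYROBP was listed at 0 in all. CD68 was called higher with the hairpin label (0.64 ± 0.12 without LPS, limma adjusted p = 0.00295). The 10 fibroblast and endothelial markers summed to between 0.801 and 1.35 FPKM without the hairpin and between 1.03 and 1.61 with it. The part of these markers in the results was not tested.

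RefSeq promoter sequence (GRCh38.p14) was at hand for 5 of the 10 genes, CDX2, KRT8, KRT20, HNF4A and KLF5. The 250 bases before the start are shown for a gene that rose with the hairpin label (CDX2), one that fell (KRT8), one near 0 (KRT20) and the one called with LPS (KLF5, its first listed start). Capitals mark matches, on either strand, to the letters CATAAA (searched for CDX factors), CACCC (KLF factors) or TATAAA (the TATA box), and each sequence is given 5′ to 3′ on the strand of its gene.
CDX2: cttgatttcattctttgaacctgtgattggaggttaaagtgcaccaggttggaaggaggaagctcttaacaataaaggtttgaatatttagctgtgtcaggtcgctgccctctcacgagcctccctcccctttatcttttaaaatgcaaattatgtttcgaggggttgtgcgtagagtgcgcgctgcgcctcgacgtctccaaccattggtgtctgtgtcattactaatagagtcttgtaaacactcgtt
KRT8: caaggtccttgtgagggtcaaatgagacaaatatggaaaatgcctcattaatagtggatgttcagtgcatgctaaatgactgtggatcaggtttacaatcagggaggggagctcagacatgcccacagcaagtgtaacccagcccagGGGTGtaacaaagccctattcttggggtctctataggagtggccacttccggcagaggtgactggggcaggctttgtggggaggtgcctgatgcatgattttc
KRT20: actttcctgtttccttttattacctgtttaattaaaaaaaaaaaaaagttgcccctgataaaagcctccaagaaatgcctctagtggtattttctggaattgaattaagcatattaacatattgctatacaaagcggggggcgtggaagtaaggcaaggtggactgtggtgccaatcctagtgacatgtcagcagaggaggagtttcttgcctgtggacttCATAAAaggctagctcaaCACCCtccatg
KLF5: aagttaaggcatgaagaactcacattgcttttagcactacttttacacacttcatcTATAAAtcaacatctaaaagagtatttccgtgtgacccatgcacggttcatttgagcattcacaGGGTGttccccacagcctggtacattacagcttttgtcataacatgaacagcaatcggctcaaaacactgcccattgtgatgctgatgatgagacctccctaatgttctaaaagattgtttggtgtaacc
The windows lie at chr13:27969316-27969565 (minus strand) for CDX2, chr12:52926470-52926719 (minus strand) for KRT8, chr17:40885243-40885492 (minus strand) for KRT20 and chr13:73054726-73054975 (plus strand) for KLF5. The KRT20 window holds CATAAA at 29 to 24 bases before the start and CACCC at 11 to 7 bases before it. The KRT8 window holds CACCC on the reverse strand at 103 to 99 bases before the start. In the KLF5 window, CACCC lies on the reverse strand at 130 to 126 bases and TATAAA at 194 to 189 bases before the start. The CDX2 window holds none of the letters searched. Neither CAAAGTCCA, searched for HNF4A, nor GGANTTTCC, searched for NF-kB, is in any of the 4 windows. Among 35116 promoter windows of the same length, CATAAA is in 9.64%, CACCC in 54.7%, TATAAA in 10.7%, CAAAGTCCA in 0.325% and GGANTTTCC in 1.45%. These are matches of letters only, and which start SW480 cells use was not measured: of the GENCODE 29 transcripts, 1 of 17 for KRT8, 1 of 2 for KRT20, 2 of 5 for KLF5 and 0 of 2 for CDX2 start within 50 bases of the start used.

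In the libraries labelled PINT shRNA1, compared with control, the keratin genes KRT8, KRT18 and KRT19, the brush border gene VIL1 and the adhesion gene EPCAM fell, while the transcription factor gene CDX2 rose. The falls ran from 0.40 of the control level for VIL1, on the (FPKM + 0.5) scale on which all folds are given, to 0.74 for KRT19, and the rise of CDX2 was 1.3-fold. Of the 8 genes tested, 5 were called lower, 1 higher and 2 not called. Of all genes tested, 27.3% were called in this comparison (10.3% lower, 16.9% higher). The median log2 fold change of the 8 was -0.59, and that of all genes tested was 0.06. The genes were chosen with earlier results of these data known, so these counts describe them and are not a test of the group. A call is an adjusted p under 0.05 in limma (Benjamini-Hochberg over all genes tested), and, since nothing says that libraries of a group came from separate cultures, the p-values reflect library-to-library spread alone, which may be technical. In bulk RNA, fewer cells expressing a gene and less RNA per cell cannot be told apart.

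**Figure D1:**
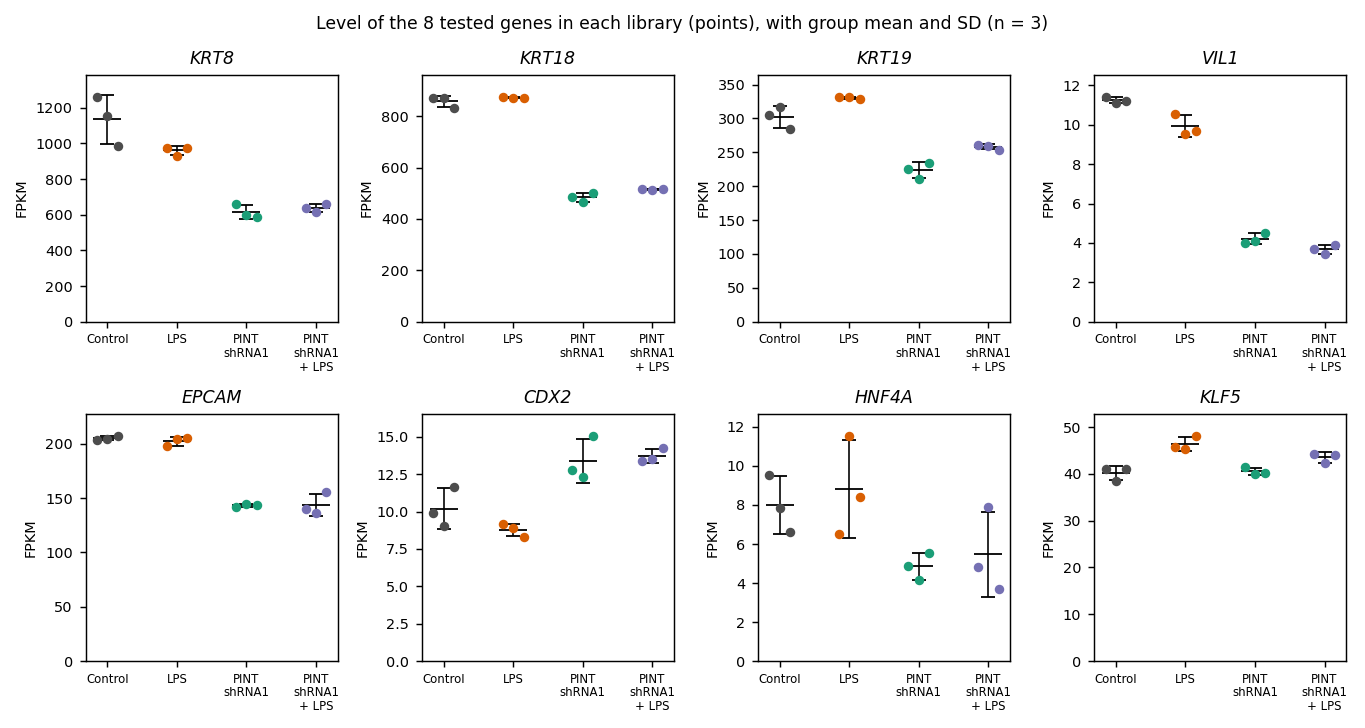
Level (FPKM, vertical axes from 0) of the 8 tested genes in each library (points) of the 4 groups, with the group mean and SD (n = 3). The KRT8, KRT18, KRT19, VIL1 and EPCAM points of both hairpin-labelled groups lie below all points of the other groups, and the CDX2 points lie above them.

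KRT8 (ENSG00000170421), the main type II keratin of simple epithelia, measured 1260.3, 1154 and 988 FPKM in the 3 control libraries and 974, 932 and 977 with LPS. It measured 659.8, 597 and 589 FPKM in the PINT shRNA1 libraries and 640.3, 616 and 659 with PINT shRNA1+LPS. All 6 hairpin-labelled libraries lay below all 6 others, and the control libraries spread most. The log2 fold change was -0.88 ± 0.08 (SE) without LPS (limma adjusted p = 2.11e-05) and -0.59 ± 0.08 with LPS in both groups (limma adjusted p = 0.000263).

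KRT18 (ENSG00000111057), the type I partner of keratin 8, measured 871, 870.3 and 833 FPKM in control and 874, 870.3 and 871 with LPS. It measured 486, 465 and 502 FPKM with PINT shRNA1 and 516, 513 and 516 with PINT shRNA1+LPS. The libraries of each group lay close together, and those with and without the hairpin label were far apart. KRT18 changed by -0.83 ± 0.03 (SE) on the log2 scale without LPS (limma adjusted p = 4.58e-08) and by -0.76 ± 0.03 with LPS (limma adjusted p = 6.95e-08).

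KRT19 (ENSG00000171345), the smallest type I keratin, measured 305, 316 and 284 FPKM in control and 332, 331 and 329 with LPS. It measured 226, 211 and 234 FPKM with PINT shRNA1 and 261, 259 and 254 with PINT shRNA1+LPS. The 2 hairpin-labelled groups again lay below the other 2 without overlap, by less than for KRT8 and KRT18. The log2 fold change was -0.43 ± 0.05 (SE) without LPS (limma adjusted p = 7.71e-05) and -0.36 ± 0.05 with LPS (limma adjusted p = 0.000234).

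VIL1 (ENSG00000127831) measured 11.4, 11.1 and 11.2 FPKM in control and 10.6, 9.54 and 9.66 with LPS. It measured 3.989, 4.11 and 4.53 FPKM with PINT shRNA1 and 3.69, 3.45 and 3.90 with PINT shRNA1+LPS. Its fall was the largest of the 8 genes, at -1.32 ± 0.07 (SE) on the log2 scale both without LPS (limma adjusted p = 3.99e-07) and with LPS (limma adjusted p = 3.65e-07). Of the genes tested, 0.18% had a lower log2 fold change than VIL1 without LPS and 0.244% with LPS.

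EPCAM (ENSG00000119888) measured 203, 205 and 207 FPKM in control and 198, 204 and 205 with LPS. It measured 141, 145 and 143 FPKM with PINT shRNA1 and 140.2, 136 and 155 with PINT shRNA1+LPS. The highest hairpin-labelled library lay well below the lowest of the others. The log2 fold change was -0.52 ± 0.04 (SE) without LPS (limma adjusted p = 2e-05) and -0.49 ± 0.04 with LPS (limma adjusted p = 2.36e-05).

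CDX2 (ENSG00000165556), the caudal-type homeobox factor of the intestine, measured 9.88, 9.01 and 11.7 FPKM in control and 9.15, 8.88 and 8.32 with LPS. It measured 12.8, 12.3 and 15.04 FPKM with PINT shRNA1 and 13.4, 13.5 and 14.2 with PINT shRNA1+LPS. Here the order of the groups was turned round, with all 6 hairpin-labelled libraries above all 6 others. CDX2 rose by 0.38 ± 0.10 (SE) on the log2 scale without LPS (limma adjusted p = 0.0139) and by 0.62 ± 0.10 with LPS (limma adjusted p = 0.000832). The call without LPS was lost when PINT shRNA1 replicate 3 was left out (adjusted p = 0.0521) and in a fit of the 2 groups alone (adjusted p = 0.0611), and the call with LPS held in all 21 alternatives.

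HNF4A (ENSG00000101076), a nuclear receptor of gut and liver epithelium, had the largest SE of the 8 genes. It measured 9.53, 7.86 and 6.61 FPKM in control, 6.53, 11.5 and 8.42 with LPS, 4.86, 4.17 and 5.53 with PINT shRNA1 and 4.83, 7.91 and 3.70 with PINT shRNA1+LPS. The control and PINT shRNA1 libraries did not overlap, whereas PINT shRNA1+LPS replicate 2 lay within the LPS range. The log2 differences were -0.66 ± 0.25 (SE; 95% confidence interval -1.22 to -0.10) without LPS (limma adjusted p = 0.0789) and -0.67 ± 0.25 with LPS (limma adjusted p = 0.0727), so HNF4A was not called. Without PINT shRNA1+LPS replicate 2 the limma adjusted p was 0.0375 and 0.0146, without LPS replicate 1 it was 0.0417 for the comparison with LPS, and in a fit of the 2 groups alone it was 0.0255 for the comparison without LPS. In each comparison the other 19 of 21 alternatives left HNF4A not called. The limma adjusted p reached up to 0.209 without LPS and 0.246 with LPS.

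With LPS in both groups (PINT shRNA1+LPS against LPS), 5 of the 8 genes were called lower and 1 higher, against 29.2% of all genes tested (11.6% lower, 17.7% higher). The median log2 fold change of the 8 genes was -0.54, and that of all genes tested 0.05. The calls of VIL1, EPCAM, KRT8, KRT18 and KRT19 held in all 21 alternatives in both comparisons. KLF5 was called in neither comparison (0.02, limma adjusted p = 0.827, and -0.09, limma adjusted p = 0.138), though with LPS its hairpin-labelled libraries lay below the others and median scaling gave it a call (-0.14, limma adjusted p = 0.0363). Over all genes, 2913 were called higher and 1780 lower without LPS, and 3039 and 1994 with LPS. Median scaling gave 2215 higher and 2151 lower without LPS and 2349 and 2530 with LPS, and quantile normalization gave 2263 and 2204, and 2561 and 2361.

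**Figure D2:**
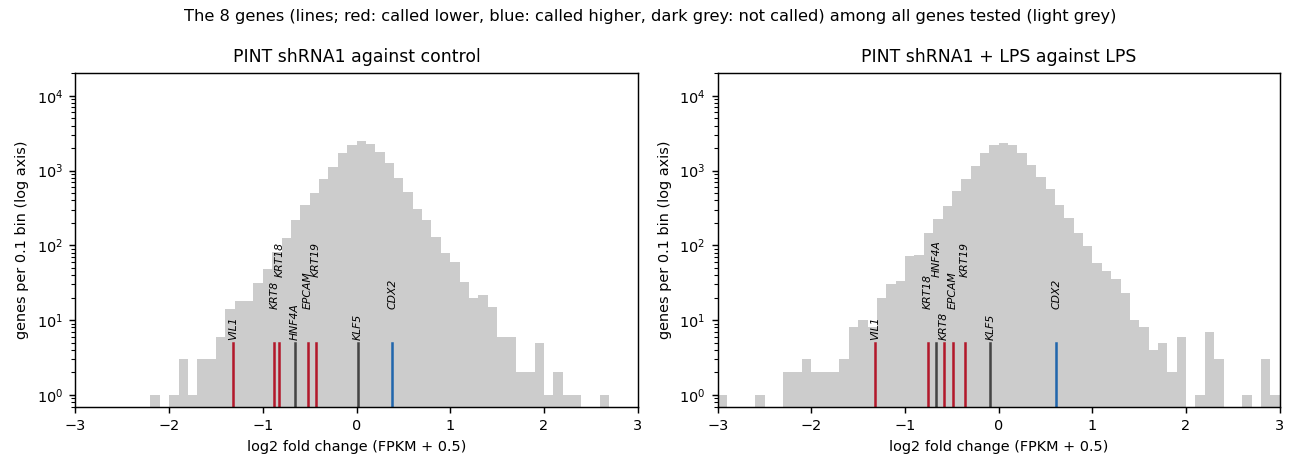
Number of genes (log axis) by log2 fold change in bins of 0.1 among all genes tested (light grey), for PINT shRNA1 against control and PINT shRNA1+LPS against LPS, with lines at the 8 genes (red called lower, blue called higher, dark grey not called). VIL1 stands at -1.32 in both panels, and CDX2 at 0.38 and 0.62.

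After 4 h of LPS in cells without the hairpin, 1 of the 8 genes was called, KLF5, and it was higher. Of all genes tested, 2.76% were called (1.57% higher, 1.19% lower), that is 271 higher and 204 lower, where median scaling gave 440 and 116 and quantile normalization 299 and 128. KLF5 (ENSG00000102554), a zinc finger factor of proliferating epithelium, measured 41.0, 38.4 and 41.0 FPKM in control and 45.8, 45.2 and 48.1 with LPS. It measured 41.5, 40.0 and 40.1 FPKM with PINT shRNA1 and 44.4, 42.3 and 44.0 with PINT shRNA1+LPS. LPS-treated libraries lay above untreated ones without overlap in both backgrounds. KLF5 rose by 0.21 ± 0.04 (SE) on the log2 scale in cells without the hairpin (limma adjusted p = 0.0286), and the value in hairpin-labelled cells was 0.10 ± 0.04 (limma adjusted p = 0.522). The call was lost in 6 of 21 alternatives. The limma adjusted p was 0.0509 without control replicate 1, 0.0915 without control replicate 2, 0.0562 without LPS replicate 1, 0.0944 without LPS replicate 3, 0.0712 with no intensity trend and 0.194 in a fit of the 2 groups alone.

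The other 7 genes were not called with LPS. KRT8 and VIL1 lay lower in every LPS library than in every control library, at -0.23 ± 0.08 (SE; limma adjusted p = 0.147) and -0.17 ± 0.07 (limma adjusted p = 0.222). KRT8 was called lower when control replicate 3 was left out (-0.33, limma adjusted p = 0.0207). KRT19 lay higher in every LPS library, at 0.13 ± 0.05 (limma adjusted p = 0.163), and median scaling gave it a call (0.19, limma adjusted p = 0.0286). KRT18 (0.02), EPCAM (-0.02), CDX2 (-0.20) and HNF4A (0.11) had control and LPS libraries that overlapped. The median log2 fold change of the 8 genes was 0.00, against -0.04 for all genes.

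In hairpin-labelled cells, PINT shRNA1+LPS against PINT shRNA1, limma called none of the 8 genes and 0.186% of all genes tested (0.163% higher, 0.0232% lower), and 4 of the 8 had an unadjusted p under 0.05. The largest of these differences was KRT19, which lay higher in all 3 PINT shRNA1+LPS libraries (0.21 ± 0.05, limma adjusted p = 0.162) and was called under median scaling (0.25, limma adjusted p = 0.0244). KRT18 (0.09), KLF5 (0.10) and VIL1 (-0.17) also had groups that did not overlap and were not called. For all genes tested, the share with an unadjusted p under 0.05 was not computed. Counts at that limit, here and below, are therefore not read as a response of the genes. The difference of the LPS responses between the backgrounds, the interaction, was called by limma for none of the 8 genes and for 0.128% of all genes (0.0349% with a positive and 0.0929% with a negative interaction), and for 1 of the 8, KRT8, the unadjusted p was under 0.05 (0.29 ± 0.11, limma adjusted p = 0.566). The LPS responses of KLF5 in the 2 backgrounds were not shown to differ (interaction -0.10 ± 0.06, limma adjusted p = 0.713), nor were the hairpin differences of CDX2 with and without LPS (0.24 ± 0.14, limma adjusted p = 0.718).

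**Figure D3:**
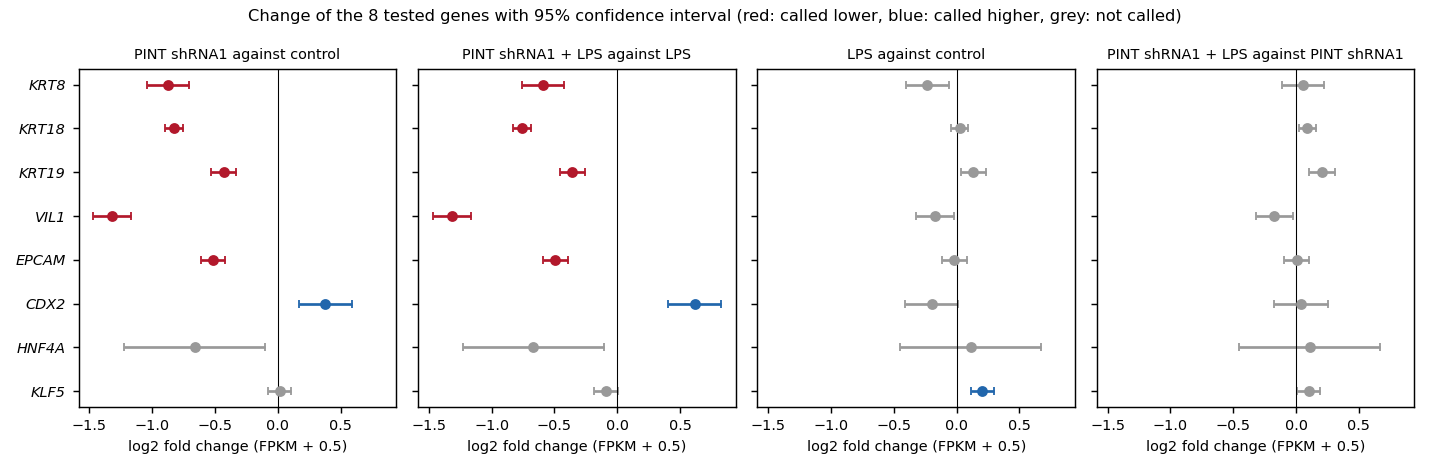
Log2 fold change with 95% confidence interval of the 8 tested genes in the 4 comparisons (red called lower, blue called higher, grey not called). In the 2 hairpin comparisons VIL1, KRT8, KRT18, EPCAM and KRT19 lie left of 0 and CDX2 right of it, and in the 2 LPS comparisons KLF5 in cells without the hairpin is the one gene called.

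The balance of the keratin partners was compared as the ratio of KRT8 to KRT18 FPKM. It was 1.45, 1.33 and 1.19 in control, 1.11, 1.07 and 1.12 with LPS, 1.36, 1.28 and 1.17 with PINT shRNA1 and 1.24, 1.20 and 1.28 with PINT shRNA1+LPS. The LPS libraries lay below the control libraries without overlap, a log2 difference of -0.26 (exact permutation p = 0.1, the smallest that 3 against 3 libraries can give, and 0.2 after adjustment over the 4 comparisons). PINT shRNA1 and control overlapped (log2 difference -0.05, exact permutation p = 0.7), and this difference ranged from -0.126 to 0.0176 when 1 library was left out. A test of 3 against 3 libraries cannot reach 0.05, so it does not show that the ratio was unchanged. With LPS the ratio lay higher in hairpin-labelled libraries (0.17, exact permutation p = 0.1, adjusted 0.2).

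The ratio of KRT18 to KRT19 was 2.86, 2.75 and 2.93 in control and 2.64, 2.63 and 2.65 with LPS. It was 2.15, 2.21 and 2.14 with PINT shRNA1 and 1.98, 1.98 and 2.03 with PINT shRNA1+LPS, below every library without the hairpin, which follows from the larger log2 change of KRT18 given above. The 4 keratin genes together took 0.583, 0.559 and 0.50% of all FPKM in control, 0.522, 0.509 and 0.519% with LPS, 0.334, 0.310 and 0.317% with PINT shRNA1 and 0.344, 0.339 and 0.340% with PINT shRNA1+LPS. The share was 0.227 percentage points lower with PINT shRNA1 than in control and 0.175 points lower with PINT shRNA1+LPS than with LPS (exact permutation p = 0.1 for each, adjusted 0.133), with no overlap in either case. Mitochondrially encoded genes took 22.9 to 24.8% of FPKM in hairpin-labelled libraries and 24.7 to 25.9% in the others. Leaving them out of the total gave shares of 0.733% ± 0.0539 (SD, n = 3) in control and 0.417% ± 0.0144 with PINT shRNA1.

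**Figure D4:**
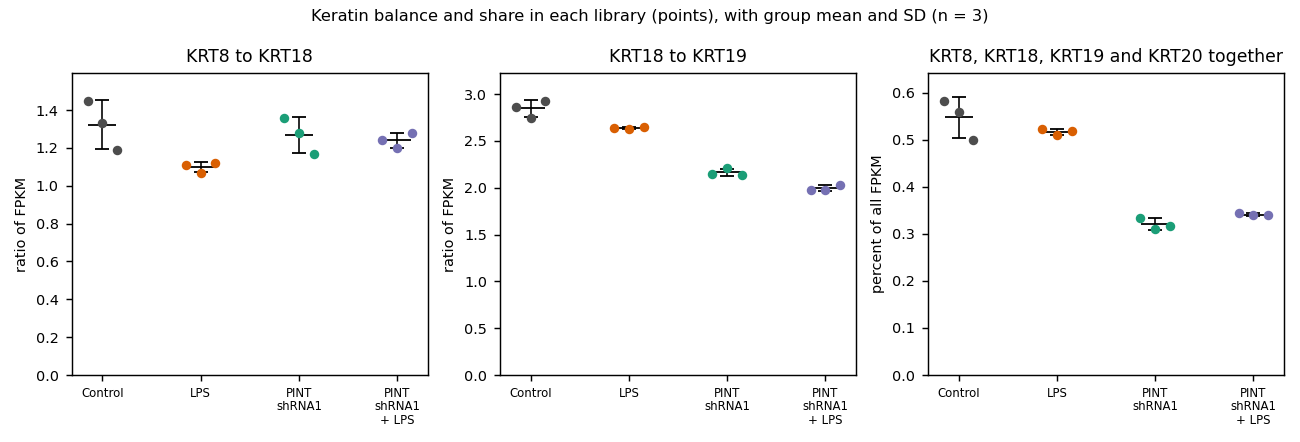
Ratio of KRT8 to KRT18, ratio of KRT18 to KRT19 (both from FPKM) and share of all FPKM taken by KRT8, KRT18, KRT19 and KRT20, in each library (points) with the group mean and SD (n = 3). The first ratio overlaps between control and PINT shRNA1, and the second ratio and the share lie lower in both hairpin-labelled groups.

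Reads of some of these genes can be shared with other genes. KRT8 and KRT18 have many processed pseudogenes, listed in 50 and 67 rows of the table, of which 2 and 1 passed the filter. The pseudogenes of KRT8 summed to between 0.992 and 2.36% of the KRT8 level in a library. KRT8P3, in which 28.2% of 50-base stretches are identical to KRT8 (GENCODE 29), fell with the hairpin label like KRT8 (-0.40 ± 0.10 without LPS, limma adjusted p = 0.0101). KRT8P12, in which 0.348% are identical, rose (0.22 ± 0.06, limma adjusted p = 0.029). KRT18P34 fell (-0.47 ± 0.16, limma adjusted p = 0.0451) at a mean of 0.627 FPKM in control. How the authors' counting split reads between these copies is not given in the sources used here.

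In GENCODE 29, exons of USP37, a deubiquitinase gene, cover 3045 bases, or 44%, of the exon bases of VIL1 on the opposite strand. Whether the counting used strand is not given, so reads of the pair cannot be told apart there. USP37 measured 10.4, 8.48 and 8.75 FPKM in control, 7.61, 9.14 and 9.24 with LPS, 6.32, 6.69 and 5.55 with PINT shRNA1 and 6.14, 6.08 and 6.70 with PINT shRNA1+LPS. It fell less than VIL1, by 0.53 ± 0.10 (SE) on the log2 scale without LPS (limma adjusted p = 0.00288) and by 0.43 ± 0.10 with LPS (limma adjusted p = 0.00907). Exons of KRT8 and KRT18, which are neighbours, overlap in GENCODE 29 on opposite strands by 525 bases, 7.63% of the KRT8 and 16.3% of the KRT18 exon bases.

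Among 17 further genes of simple keratins, other intermediate filaments and the plakins and desmosomal proteins that anchor them, PINT shRNA1 libraries had 3 called higher, 9 lower and 5 not called against control. With LPS in both groups 4 were higher, 7 lower and 6 not called. Of all genes, 16.9% were called higher and 10.3% lower without LPS, and 17.7% and 11.6% with LPS. The median log2 fold changes were -0.19 and -0.10, against 0.06 and 0.05 for all genes. Neither LPS comparison called any of the 17 in limma (3 had an unadjusted p under 0.05 in cells without the hairpin and 0 in hairpin-labelled cells). DSP (desmoplakin), the desmosomal plakin that binds keratin filaments, measured 82.1, 82.1 and 81.1 FPKM in control and 62.4, 62.0 and 61.0 with PINT shRNA1, and fell (-0.40 ± 0.03 without LPS, limma adjusted p = 7.31e-06). JUP (plakoglobin) fell alike in direction, by 0.45 ± 0.04 on the log2 scale (limma adjusted p = 4.27e-05). Within the keratin family the directions were mixed. KRT7, a type II keratin, measured 2.74, 3.11 and 3.66 FPKM in control and 6.27, 7.74 and 8.23 with PINT shRNA1, with no overlap. KRT7 rose by 1.11 ± 0.11 on the log2 scale without LPS (limma adjusted p = 5.7e-05) and by 1.15 ± 0.11 with LPS (limma adjusted p = 3.78e-05). The type I keratin gene KRT23 measured 148, 164 and 149 FPKM in control and 234, 223 and 214 with PINT shRNA1, a rise of 0.54 ± 0.05 (limma adjusted p = 4.02e-05).

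Chosen after their values were seen, 3 more genes of that list are given. KRT80, a type II keratin, measured 15.2, 17.0 and 18.4 FPKM in control and 8.02, 5.91 and 5.30 with PINT shRNA1, a fall of 1.34 ± 0.16 on the log2 scale in which no libraries overlapped (limma adjusted p = 0.000159). PPL (periplakin), a plakin of the cornified envelope and desmosomes, fell by 0.95 ± 0.13 (limma adjusted p = 0.00051). VIM (vimentin), the intermediate filament protein of mesenchymal cells, rose from 100.4, 114 and 121 FPKM to 160.05, 149.6 and 153 (0.47 ± 0.06, limma adjusted p = 0.000349).

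**Figure D5:**
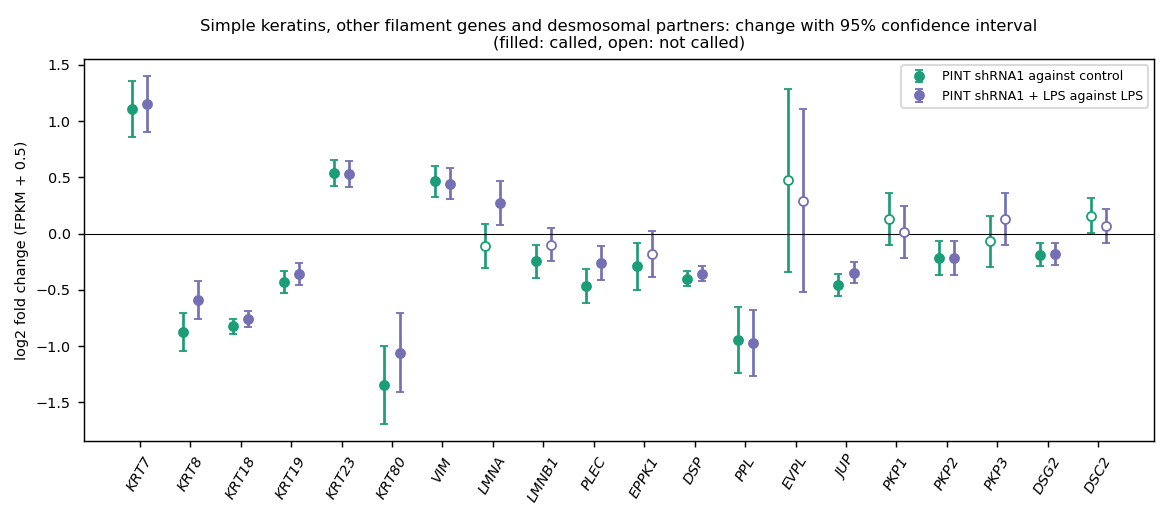
Log2 fold change with 95% confidence interval of KRT8, KRT18, KRT19 and the 17 further filament and desmosome genes for PINT shRNA1 against control (green) and PINT shRNA1+LPS against LPS (purple), filled where called. KRT7 and KRT23 lie above 0, and KRT8, KRT18, KRT19 and KRT80 below it, in both comparisons.

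Of 20 further brush border genes 12 were tested. Without LPS, 1 was called higher, 3 lower and 8 not called, and with LPS 2, 6 and 4, where 27.3% and 29.2% of all genes were called. The median log2 fold changes were -0.13 and -0.15, against 0.06 and 0.05 for all genes. MISP, an actin-binding protein gene, measured 22.3, 21.6 and 20.2 FPKM in control and 14.3, 13.8 and 15.4 with PINT shRNA1, and fell in both comparisons (-0.54 ± 0.06, limma adjusted p = 6.61e-05, and -0.34, limma adjusted p = 0.00118). EPS8, which caps and bundles actin, fell in both (-0.67 ± 0.14, limma adjusted p = 0.00555, and -0.43, limma adjusted p = 0.0431), as did EZR (ezrin), the linker of membrane and actin, by less (-0.16, limma adjusted p = 0.00572, and -0.11, limma adjusted p = 0.0291). ESPN, an actin bundler, was called lower in the comparison with LPS (-1.25 ± 0.26, limma adjusted p = 0.00463). AVIL (advillin), a relative of villin, rose from 0.531, 0.968 and 0.838 FPKM to 1.46, 1.72 and 1.67 (0.74 ± 0.16, limma adjusted p = 0.00711). SLC9A3R1, chosen after its values were seen, ranged from 12.68 to 12.95 FPKM with LPS. With PINT shRNA1+LPS it lay higher without overlap, from 15.72 to 16.9 FPKM. The other 8, among them MYO1A and CDHR5, did not pass the filter.

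All 12 genes listed for proteins that bind, cleave or resemble EPCAM, or that inhibit proteases (SPINT1 and SPINT2), were tested. Without LPS 2 were called higher and 5 lower, where 16.9% and 10.3% of all genes were, and with LPS 0 and 5, where 17.7% and 11.6% were. Their median log2 fold changes were -0.16 and -0.07, against 0.06 and 0.05 for all genes. SPINT1, a membrane inhibitor of the protease matriptase, measured 36.5, 35.5 and 31.9 FPKM in control and 21.9, 20.02 and 22.4 with PINT shRNA1, and fell (-0.68 ± 0.06 without LPS, limma adjusted p = 1.86e-05; -0.61 with LPS, limma adjusted p = 3.53e-05). The tetraspanin gene CD9 fell as well (-0.40 ± 0.03, limma adjusted p = 1.29e-05, and -0.43, limma adjusted p = 6.48e-06).

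Of 17 further intestinal transcription factor genes 10 were tested. In the hairpin comparisons 1 was called higher and 1 lower without LPS, and 2 and 2 with LPS, beside 27.3% and 29.2% of all genes called. The share of this list called without LPS was thus no higher than that of all genes. SOX9, a factor of crypt progenitors, measured 80.9, 79.2 and 79.8 FPKM in control and 58.7, 60.1 and 60.6 with PINT shRNA1, and fell in both comparisons (-0.42 ± 0.03, limma adjusted p = 4.5e-06, and -0.26, limma adjusted p = 0.000104). FOXA2, a forkhead factor of endoderm, rose with the hairpin label without LPS (0.35, limma adjusted p = 0.0266). PDX1 (0.39, limma adjusted p = 0.0201) was higher in PINT shRNA1+LPS than in LPS libraries, and ELF3 was lower there (-0.31, limma adjusted p = 0.00681). In LPS against control, ELF3, an epithelial ETS factor, rose from 6.41, 5.86 and 5.49 FPKM to 7.78, 7.70 and 7.57 (0.35 ± 0.07, limma adjusted p = 0.0222). ATOH1, the secretory lineage factor, was listed at 0 in all 12 libraries.

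Among 12 other KLF family genes tested, 3 were called lower and 0 higher without LPS, where 10.3% of all genes were called lower and 16.9% higher. In either direction, the share of the 12 was near the 27.3% of all genes called. KLF11, a repressor of the family, had the largest fall, from 7.57, 6.89 and 6.83 FPKM to 4.36, 4.61 and 4.27 (-0.63 ± 0.07, limma adjusted p = 8.5e-05). With LPS 2 were called higher and 2 lower, near the 29.2% of all genes, KLF11 again among the latter (-0.70). With LPS limma called none of the 12 in either background (unadjusted p under 0.05 for 3 in cells without the hairpin and 2 in hairpin-labelled cells).

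Genes of differentiated enterocytes and colonocytes were scarce in these cells, and 3 of 26 passed the filter, where 17214 of all 57905 genes did. In each hairpin comparison 1 of the 3 was called higher, 1 lower and 1 not called. Of all genes tested, 27.3% were called without LPS and 29.2% with LPS. TSPAN8, a tetraspanin, fell without LPS (-0.73, limma adjusted p = 0.00567) and with LPS (-0.52, limma adjusted p = 0.0291). MUC13, a membrane mucin, rose from 6.99, 7.18 and 7.21 FPKM to 10.8, 10.7 and 10.3 (0.54 ± 0.07, limma adjusted p = 0.000376). SI, the sucrase-isomaltase gene, and APOA4, CEACAM7 and PHGR1 were listed at 0 in all 12 libraries. Of 13 goblet, enteroendocrine and Paneth cell genes 2 were tested, and limma called neither in any comparison (0 with an unadjusted p under 0.05). Of 13 crypt and stem cell genes 9 were tested. Without LPS 3 were called higher and 1 lower, beside 16.9% and 10.3% of all genes, and with LPS 3 and 0, beside 17.7% and 11.6%. The 9 had median log2 fold changes of 0.25 and 0.18, against 0.06 and 0.05 for all genes. CD44, a hyaluronan receptor, measured 77.2, 84.4 and 90.9 FPKM in control and 109.8, 104.8 and 107.7 with PINT shRNA1, and rose without LPS (0.35 ± 0.08, limma adjusted p = 0.00679). ZNRF3, a ubiquitin ligase that lowers Wnt receptors, also rose without LPS (0.25 ± 0.08, limma adjusted p = 0.0378), and MSI1, an RNA-binding protein gene of stem cells, rose without LPS (0.46 ± 0.14, limma adjusted p = 0.0304) and with it (0.60 ± 0.14, limma adjusted p = 0.00742). In the comparison with LPS the other 2 called higher were RNF43 (0.17, limma adjusted p = 0.0153) and EPHB3 (0.43, limma adjusted p = 0.0328). ASCL2, a factor of intestinal stem cells, was lower in PINT shRNA1 than in control libraries (-0.61, limma adjusted p = 0.000608), and lower with LPS than in control (-0.44, limma adjusted p = 0.027). In hairpin-labelled cells limma called no gene of these lists with LPS. An unadjusted p under 0.05 was found for 3 of 12 brush border genes, 3 of 12 EPCAM partner genes, 2 of 10 transcription factor genes, 2 of 12 KLF genes and 0 of the filament, differentiation, secretory and crypt genes. No share of all genes was computed beside these counts, so they are not read as a response.

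The genes whose pattern over the 12 libraries was most like each called member were found by the root mean square difference of log2(FPKM + 0.5). Each gene was centred on its own mean. The search covered 8777 tested genes whose mean reached 5 FPKM and whose symbols did not match patterns of clone-based names. For VIL1 they were NEK7 (0.083), SORL1 (0.0875) and RHOBTB3 (0.089). For EPCAM they were KLHL5 (0.0432), SYK (0.0471) and PNMA2 (0.0492), and for KRT19 LIF (0.043), ELF4 (0.0519) and CBX6 (0.0554). The heteropolymer partners were not each other's nearest genes. KRT8 was nearest to SLC2A3 (0.0975), with KRT18 at position 23 (0.123), and KRT18 was nearest to RAB5C (0.0494), with KRT8 at position 73. CDX2 was nearest to NPIPA1 (0.0778), one of a family of near-identical copies, and LGMN (0.0783), and KLF5 to NUP153 (0.0298).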

How the data were processed

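Expression was deposited by the authors as FPKM, with a row for each Ensembl gene. Per the submitters' processing notes, StringTie 1.3.4d, HISAT2 2.1.0 and fastp were used, with the hg19 (GRCh37) build, and the role of each is not stated. Of the table, 12 columns were used and 6 were not used here. The labels list 6 samples for PINT shRNA1, in pairs of 1 RNA number, but the table has 1 column for each number, and what each column combines is not recorded.

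In R 4.3.3, limma 3.58.1 fitted group means of all 12 libraries to log2(FPKM + 0.5), with moderation that follows the intensity. Contrasts were two-sided, and p-values were adjusted by Benjamini-Hochberg over the 17214 genes that reached 0.5 FPKM in 3 or more libraries. The keratin ratio and share were given two-sided exact permutation tests, adjusted over 4 comparisons. The pipeline was tested on simulated data. Depth behind an FPKM is unknown, so the precision given is the SE or SD. Named genes are all members, LINC-PINT and up to 4 called genes of smallest p per list and comparison. Listed genes at 0, the highest keratin pseudogenes and the nearest patterns were also named. USP37, SLC9A3R1 and 3 filament genes were named after their values were seen. Some of the genes so chosen are not reported here. The members and lists were chosen with earlier results of these data known. Alternatives were other pseudocounts, filters and scalings, no trend, the replicate number as a block, fits of the compared groups alone and leaving out each library. GENCODE 29, of another build, served only for gene overlaps, transcript starts and pseudogene identity.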

Additional observations from a re-analysis of the deposited data

How the results depend on the processing

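No called result of the members changed direction under any alternative. In LPS against control, median scaling called 2 of the 8 genes higher, and 0 were called with no trend or in a fit of the 2 groups alone. That fit called 127 genes of the whole table instead of 475, and 0 members higher in PINT shRNA1 against control. In PINT shRNA1+LPS against PINT shRNA1, median scaling called 1 member, and the 32 genes of the whole table became 59 with median scaling, 57 with quantile normalization and 18 with no trend. Without mitochondrial genes, which makes the total smaller, the keratin share differed by -0.315, -0.241 and 0.0317 percentage points (PINT shRNA1 against control, PINT shRNA1+LPS against LPS and against PINT shRNA1).

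No pairing of libraries by replicate number was seen. Deviations from the group means correlated at -0.0476 to 0.0569 in 18 same-numbered pairs and at -0.0582 to 0.0463 in 36 pairs of different number. Of the 12 libraries, 4 correlated best with their own number. Whether same-numbered libraries shared a culture or batch was not tested. The replicate block left all member counts as they were, and called 311 genes of the whole table in LPS against control, 17 in PINT shRNA1+LPS against PINT shRNA1 and 14, instead of 22, in the interaction.

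Leaving out 1 library at a time gave, for LPS against control, 0 to 1 members higher, 0 to 1 lower and 288 to 411 genes in all. It gave 0 to 1, 5 to 6 and 3551 to 4755 for PINT shRNA1 against control, where 0 members were higher without PINT shRNA1 replicate 3. It gave 1, 5 to 6 and 3775 to 5098 for PINT shRNA1+LPS against LPS. It gave 0, 0 and 19 to 40 for PINT shRNA1+LPS against PINT shRNA1, and 0, 0 and 17 to 26 for the interaction. The log2 balance of KRT8 to KRT18 ranged from -0.331 to -0.187 for LPS against control, from -0.126 to 0.0176 for PINT shRNA1 against control, from 0.149 to 0.193 for PINT shRNA1+LPS against LPS and from -0.0907 to 0.0144 for PINT shRNA1+LPS against PINT shRNA1. The keratin share ranged, in the same order, from -0.0544 to -0.0126, -0.251 to -0.209, -0.179 to -0.173 and 0.016 to 0.028 percentage points. Without a known depth, counting error cannot be given for CDX2, VIL1, HNF4A or the genes near 0. Apart from the smaller total without mitochondrial genes, the cause of these shifts was not tested.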
